A study of Zea mays with 4 samples.

Results

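Transcripts of ribosomal protein and translation factor genes were followed in young maize internodes with and without downregulation of cinnamoyl-CoA reductase (CCR), which acts in the making of lignin precursors. A probe set of the Affymetrix maize array was a member if a name of its gene began with rpl, rps or rpp and a digit, with eIF, or with EF1 or EF-1. This gave 36 probe sets for 25 genes, out of 17555 probe sets that were not array controls. They comprised 8 probe sets for 6 genes of the large ribosomal subunit, 9 for 6 genes of the small subunit, 9 for 6 genes of the acidic stalk, 7 for 6 genes named as initiation factors and 3 for elongation factor 1. The rule used gene names alone and no measured value, but it was set with earlier results of these data known.

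There were 2 CCR mutant samples and 2 samples named WS, with 1 array for each. Days of 16 h at 25 °C alternated with nights at 22 °C for all plants, and internodes were taken when plants had 6 to 7 leaves. Each WS array carried a pool, in which the sample's own extract (185 or 215 µg RNA) was joined by 3 further extracts of 1 µg, and the WS labels record drought lasting 36 h, with REW between 20 and 30 percent. For comparison, each CCR mutant array carried material of 1 extract (144 or 182 µg RNA), and no treatment is recorded for the CCR mutant. These are amounts of the extracts, and for every sample 20 µg of amplified RNA is recorded. Whether the drought text applies to the plants sampled is not stated. The effects of genotype, pooling and recorded treatment therefore cannot be told apart here. The meaning of WS, the mutant allele and its background are not given in the sources used here, and no label says that the replicates are different plants. The p-values therefore reflect the spread of these 4 arrays alone, which may be technical.

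A ribosome joins a large subunit, whose proteins have names in L, to a small subunit, whose proteins have names in S. The acidic P proteins form a flexible stalk on the large subunit, where the elongation factors dock. Initiation factors bring the capped mRNA and the small subunit together, and elongation factor 1A carries aminoacyl-tRNA to the ribosome. Growing tissues such as a young internode need a steady supply of ribosomes, and transcripts of these genes are among the abundant ones of dividing and enlarging plant cells.

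The arrays had medians of 6.56 to 6.62 on the log2 scale of the deposited GCRMA values. The CCR gene cncr1 was at 10.99 and 10.13 in WS and at 8.59 and 9.14 in the CCR mutant, and the dimmer cncr2 differed by -0.11 (SE 0.39). Both CCR mutant arrays were thus below both WS arrays for cncr1, but its difference of -1.70 did not pass (limma adjusted p = 0.68). All 4 probe sets of secondary wall genes (cesa10, cesa11, CesA12 and bk2) were tested, with levels of 9.68 to 10.82, and 18 of 20 of the photosynthetic leaf list were tested as well. In whole internodes, fewer cells of a type and less RNA per cell cannot be told apart.

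Of the 36 member probe sets, 33 reached a log2 value of 4 on at least 2 arrays and were tested. Their signal was high: 27 of the 33 (81.8%) had a mean of 10 or more, against 21.2% of the 11085 tested probe sets of the array. The other 3 lay at 1.81 to 1.96 on every array, close to the median of 2.07 of the reporter probe sets, whose genes are not of maize. Each of these 3 belongs to a gene with a bright probe set as well, namely rpp1a, rpp3a and EF1-A. All 25 genes therefore had at least 1 probe set above background.

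**Figure D1:**
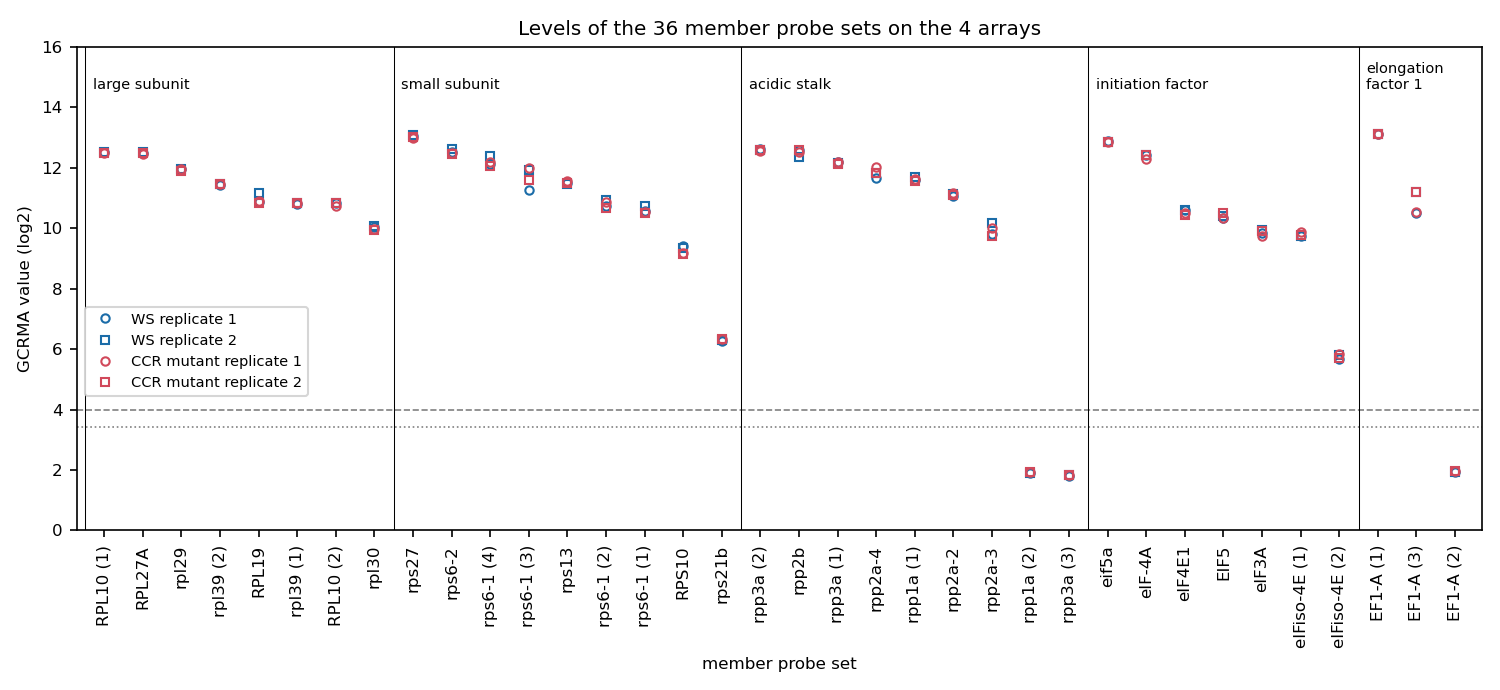
GCRMA value (log2) of each of the 36 member probe sets on the 4 arrays, ordered by family and level; numbers in brackets count the probe sets of 1 gene. The dashed line is the minimum of 4 for testing, and the dotted line is 3.43, at or below which 65 of 66 reporter probe sets stayed. Points of the 4 arrays mostly coincide, and 3 probe sets lie below both lines.

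None of the 33 tested members passed in the comparison of CCR mutant with WS (limma, Benjamini-Hochberg adjusted p under 0.05). On the whole array 0.153% of the tested probe sets passed. At an unadjusted p under 0.05 the members also gave 0, where the array gave 6.43%. That count was 1 with a variance trend (RPS10) and 3 of 36 with no filter (RPS10, eIF4E1 and rpl30, where the array gave 9.92%). The differences of the members lay between -0.205 and 0.20 on the log2 scale; their median was -0.035, beside -0.045 over all tested probe sets. Values were lower in the CCR mutant for 20 members, higher for 12 and equal for 1. With each array centred on its median the split was 13 lower and 19 higher, with a median of 0.005, so no direction of the whole group can be read from it.

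The intervals give the precision of each difference, 1 probe set at a time and without adjustment for the number of tests. They do not give the size of difference that would have passed. For cncr1 the interval of -2.79 to -0.60 excluded 0, yet its difference did not pass (limma adjusted p = 0.68). The 95% confidence interval lay within 0.5 of 0 on the log2 scale for 29 of the 33 members (87.9%), compared with 58.4% of all tested probe sets and 79.0% of those with a mean of 10 or more (88.9% of the members in that band). It lay within 1 of 0 for 31 members. The exceptions were a probe set of EF1-A, with an interval of -1.04 to 1.07, and a probe set of rps6-1, with -0.61 to 1.01. The adjusted p-values of the members ran from 0.774 to 1.

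**Figure D2:**
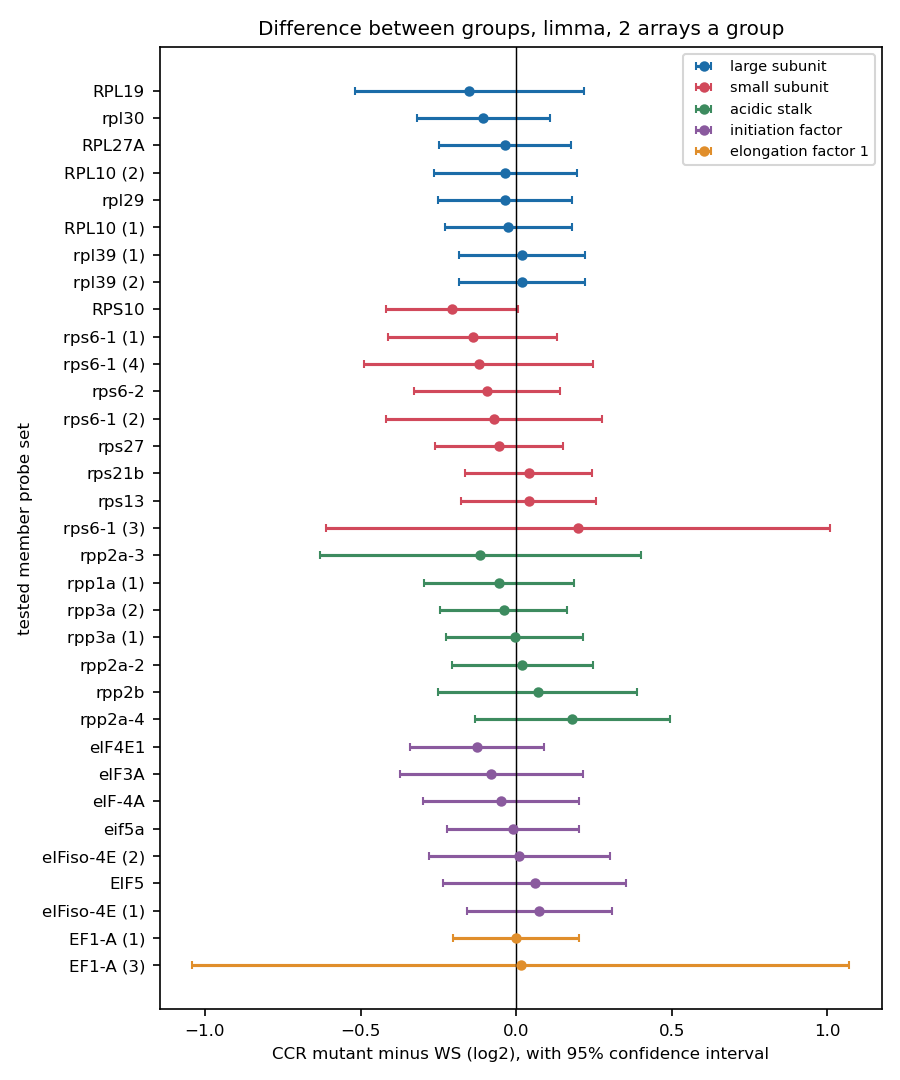
Difference CCR mutant minus WS (log2) of the 33 tested member probe sets, as points with 95% confidence intervals from limma, coloured by family. All points lie between -0.205 and 0.20 and all intervals include 0; those of 1 EF1-A and 1 rps6-1 probe set are the widest.

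The groups did not overlap for 13 of the 33 members (39.4%), beside 36.5% of all tested probe sets. In 8 both CCR mutant arrays were below both WS arrays, beside 23.5% of all tested probe sets (24.2% of the members), and in 5 both were above, beside 13% of all (15.2% of the members). These shares were near those of the array as a whole. The difference between group means was smaller than the difference between the arrays of at least 1 group for 23 members (69.7%), beside 74.4% of all tested probe sets.

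The members were steady over all 4 arrays. The gap between the highest and the lowest array had a median of 0.14, against 0.29 over all tested probe sets, and was under 0.2 for 22 of the 33. Bright probe sets varied less in general, and over the 2351 with a mean of 10 or more this median was 0.20. The 27 members in that band had a median of 0.14, but they were also brighter, with a median level of 11.7 against 10.97. The residual SD of the members had a median of 0.052, against 0.115 over all tested probe sets; in the band from 10 upwards these medians were 0.049 and 0.084. No test was made of this steadiness, and compression of the signal at the bright end of the scale was not tested.

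**Figure D3:**
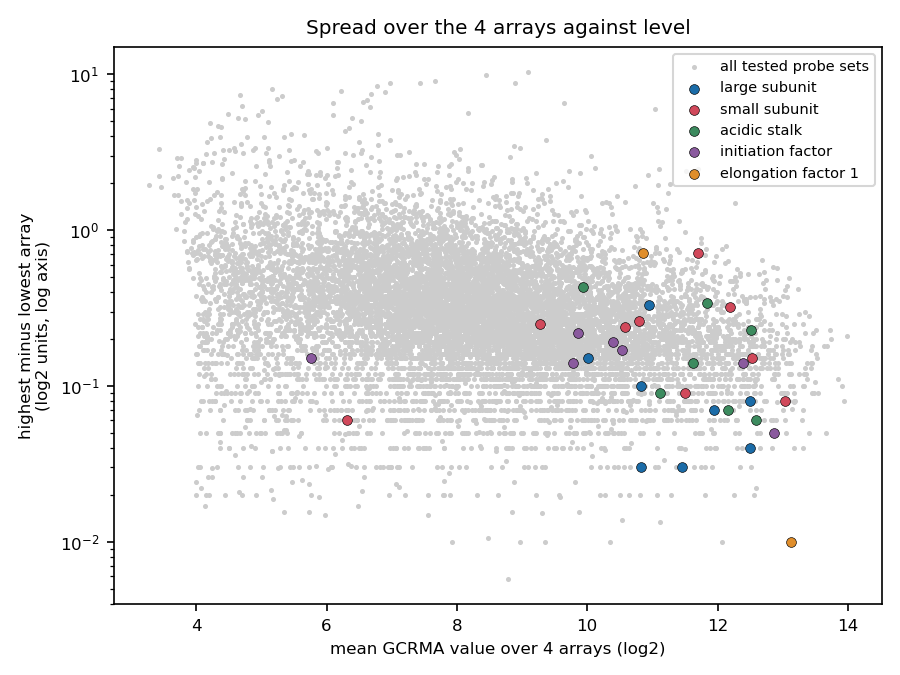
Gap between the highest and the lowest of the 4 arrays (log2 units, log axis) against the mean GCRMA value (log2), for all 11085 tested probe sets in grey and the 33 tested members coloured by family. Most members lie at the bright end and low in the cloud; 2 members have a gap of 0.71.

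The 8 probe sets of the large subunit differed by -0.15 to 0.02 with a median of -0.035, 6 being lower and 2 higher, and the median of their gaps over the 4 arrays, 0.075, was the lowest of any family. RPL10, which joins the large subunit late in its assembly, was at 12.51 and 12.52 in WS and at 12.50 and 12.48 in the CCR mutant on its brighter probe set. The second RPL10 probe set was at 10.85 and 10.82 against 10.75 and 10.85. The brighter one set the groups apart by a margin of 0.01 only, and the second overlapped.

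RPL19, a protein of the bridges between the subunits, was at 10.88 and 11.16 in WS and at 10.91 and 10.83 in the CCR mutant. WS replicate 2 alone stood above the other 3 arrays, so the groups overlapped. The difference of -0.15 (SE 0.13, 95% confidence interval -0.52 to 0.22) was -0.01 without that array. For rpl30, whose yeast counterpart regulates the splicing of its own transcript, the values were 10.04 and 10.08 in WS against 9.98 and 9.93 in the CCR mutant. Here both CCR mutant arrays were lower, with a difference of -0.105 (SE 0.07, interval -0.32 to 0.11, limma adjusted p = 0.813).

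The 2 probe sets of rpl39, a small protein at the exit of the peptide tunnel, moved in parallel. One was at 10.81 and 10.82 in WS and at 10.84 and 10.83 in the CCR mutant, and the other at 11.44 and 11.45 against 11.47 and 11.46. Both gave a difference of 0.02 (SE 0.07). The groups did not overlap, yet the interval of -0.18 to 0.22 spans 0. The spread of such a probe set is set by limma partly from that of all others, which widened the interval. RPL27A was at 12.49 and 12.53 against 12.45 and 12.50, and rpl29 at 11.97 on both WS arrays against 11.97 and 11.90. Both overlapped, and both differed by -0.035 (SE 0.07).

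In the small subunit 6 of 9 probe sets were lower and 3 higher in the CCR mutant; their median was -0.07. RPS10, a small-subunit ribosomal protein, was at 9.40 and 9.35 in WS and at 9.19 and 9.15 in the CCR mutant. The means were 9.38 ± 0.04 and 9.17 ± 0.03 (SD, n = 2 each). Both CCR mutant arrays were below both WS arrays by a margin larger than the gap within either group. The difference of -0.205 (SE 0.07, interval -0.42 to 0.01) corresponds to 86.8% of the WS geometric mean. Its unadjusted p in the limma fit was 0.0552 and its adjusted p was 0.774, so it did not pass, although it had the lowest p of all members. Without any 1 of the arrays the difference was between -0.23 and -0.18. It was smaller, at -0.165, with each array centred on its median, and -0.174 with quantile normalization repeated. Of all tested probe sets 25.5% had a larger absolute difference than RPS10.

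The genes rps6-1 and rps6-2 encode S6, the ribosomal protein that is phosphorylated by S6 kinase when growth is stimulated. The probe set of rps6-2 was at 12.51 and 12.63 in WS and at 12.48 and 12.47 in the CCR mutant. Its difference was -0.09 (SE 0.08). The CCR mutant arrays were lower, by less than the gap between the WS arrays. rps6-1 had 4 probe sets, and they did not give the same picture. The one with the lowest p was at 10.57 and 10.74 against 10.53 and 10.50, a difference of -0.14 (SE 0.09, interval -0.41 to 0.13, adjusted p = 0.809). Its companion, of a type whose probes can also bind other transcripts, was at 10.74 and 10.93 against 10.86 and 10.67, and another was at 12.13 and 12.38 against 12.21 and 12.06, so the groups overlapped in both. These 3 differed by -0.14 to -0.07.

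The remaining rps6-1 probe set was at 11.28 and 11.92 in WS and at 11.99 and 11.61 in the CCR mutant. Its difference was 0.20 (SE 0.28). WS replicate 1 was the low array there and the groups overlapped. It was the only rps6-1 probe set with a higher mean in the CCR mutant. WS replicate 2 was above WS replicate 1 on all 4 rps6-1 probe sets, and CCR mutant replicate 2 below CCR mutant replicate 1 on all 4. Probe sets of 1 gene share their RNA and are not independent measurements.

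The other small-subunit genes differed less. rps27 was at 13.04 and 13.08 in WS and at 13.00 and 13.01 in the CCR mutant, lower on both arrays by a mean of 0.055 on the log2 scale. rps13 was at 11.50 and 11.47 against 11.56 and 11.49, and rps21b, with weaker signal, at 6.28 and 6.30 against 6.34 and 6.32. Both had a difference of 0.04, with intervals of -0.18 to 0.26 and -0.16 to 0.24. The groups overlapped for rps13 and not for rps21b.

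The acidic stalk gave 4 lower and 3 higher values among its 7 tested probe sets, with a median of -0.005. The genes rpp2a-2, rpp2a-3, rpp2a-4 and rpp2b encode P2 proteins, which pair with P1 on the stalk. rpp2a-4 was at 11.68 and 11.82 in WS and at 12.02 and 11.84 in the CCR mutant. Both CCR mutant arrays were higher, the nearer one by 0.02 only. The difference of 0.18 (SE 0.11, interval -0.13 to 0.49, limma adjusted p = 0.809) was 0.09 without CCR mutant replicate 1.

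The other P2 genes overlapped between the groups. rpp2a-3 was at 9.81 and 10.17 in WS and at 10.01 and 9.74 in the CCR mutant. It differed by -0.115 (SE 0.18). rpp2a-2 was at 11.07 and 11.14 against 11.16 and 11.09, and rpp2b at 12.60 and 12.37 against 12.53 and 12.58. The differences of the 4 P2 genes thus lay on both sides of 0, from -0.115 to 0.18, and all 4 intervals included 0.

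P1 and the plant-specific P3 complete the stalk. The bright probe set of rpp1a, for P1, was at 11.59 and 11.70 in WS and at 11.62 and 11.56 in the CCR mutant. For rpp3a, for P3, one bright probe set was at 12.61 and 12.60 against 12.55 and 12.58 and the other at 12.19 and 12.15 against 12.20 and 12.13. The first rpp3a probe set did not overlap between the groups and the second did. Their differences were -0.04 and -0.005, and that of rpp1a was -0.055.

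The 7 probe sets of initiation factors differed by -0.125 to 0.075, with 4 lower and 3 higher. Plants have a pair of cap-binding proteins, eIF4E and the isoform eIFiso4E, and their genes had differences of opposite sign. eIF4E1 was at 10.59 and 10.61 in WS and at 10.51 and 10.44 in the CCR mutant, with both CCR mutant arrays below both WS arrays. The difference was -0.125 (SE 0.08, interval -0.34 to 0.09, limma adjusted p = 0.809). eIFiso-4E was at 9.74 and 9.76 against 9.88 and 9.77, with both CCR mutant arrays higher, the nearer one by 0.01, and a difference of 0.075 (SE 0.08, interval -0.16 to 0.31). The second probe set of eIFiso-4E was dim, at 5.68 and 5.82 against 5.83 and 5.69, and overlapped. Neither gene passed, and whether their differences differ from each other was not tested.

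The remaining factors all overlapped between the groups. eIF-4A, the RNA helicase that unwinds the leader of the mRNA, was at 12.43 and 12.41 in WS and at 12.30 and 12.44 in the CCR mutant. eIF3A, the largest subunit of the scaffold factor eIF3, was at 9.84 and 9.95 against 9.73 and 9.90. EIF5, which triggers GTP hydrolysis by eIF2 at the start codon, was at 10.33 and 10.40 against 10.33 and 10.52. The gene eif5a, whose hypusine-bearing product aids elongation despite its name, was at 12.89 and 12.84 against 12.84 and 12.87. The differences of these 4 genes were -0.08 for eIF3A, -0.05 for eIF-4A, -0.01 for eif5a and 0.06 for EIF5.

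Elongation factor 1A gave the steadiest and one of the most variable of the member probe sets. The brighter EF1-A probe set, of a type that can bind several transcripts of the family, was at 13.12 and 13.13 in WS and at 13.13 and 13.12 in the CCR mutant. Its gap of 0.01 over the 4 arrays was smaller than that of 99.9% of all tested probe sets, and its difference was 0.00 (SE 0.07, interval -0.20 to 0.20). The dimmer tested EF1-A probe set, of a type whose probes can also bind other transcripts, was at 10.50 and 11.21 in WS and at 10.53 and 11.21 in the CCR mutant. Both replicates numbered 2 were higher than both numbered 1, by 0.71 in WS and 0.68 in the CCR mutant, while the group means differed by 0.015 (SE 0.37, interval -1.04 to 1.07). The difference became -0.34 without WS replicate 1 and 0.37 without WS replicate 2. EF-1A has several near-identical copies in maize, so the transcripts behind either signal are uncertain.

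**Figure D4:**
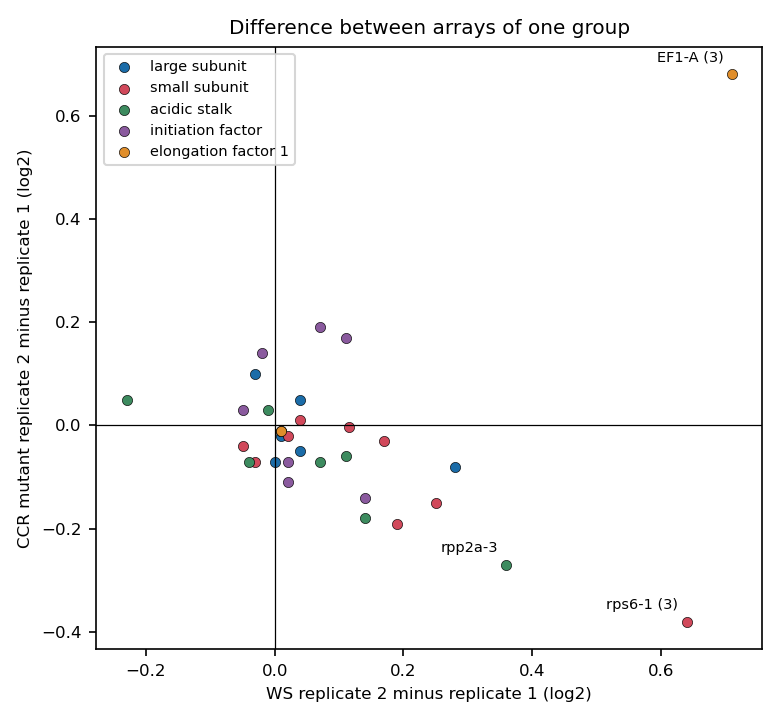
Difference between the arrays of 1 group, WS replicate 2 minus replicate 1 against CCR mutant replicate 2 minus replicate 1 (log2), for the 33 tested members coloured by family. The EF1-A point at 0.71 and 0.68 stands apart at the upper right, and the rps6-1 point at 0.64 and -0.38 and the rpp2a-3 point at 0.36 and -0.27 lie at the lower right.

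The arrays of a group did not differ evenly over the members. WS replicate 2 was above WS replicate 1 for 24 members and below it for 8. CCR mutant replicate 2 was below CCR mutant replicate 1 for 23 and above it for 10. Over all 11085 tested probe sets, WS replicate 2 was above for 5202 and below for 5774. CCR mutant replicate 2 was below for 5575 and above for 5364. Probe sets of the same gene were counted separately. WS replicate 2 was the single highest array for 13 of the 33 members, and CCR mutant replicate 2 the single lowest for 13 (39.4% each). Over all tested probe sets these shares were 27.9% and 30.2%, and the array most often highest was WS replicate 1, with 33.4%. CCR mutant replicate 1 was the single highest for 10 members (30.3%), beside 15.2% of all tested probe sets. WS replicate 1 was the single lowest for 9 (27.3%), beside 16.8% of all. In the dividing-cell list (cyclins, MCM proteins, PCNA and histones), WS replicate 2 was highest for 12 of 16 tested probe sets. CCR mutant replicate 2 was lowest for 12. In this list CCR mutant replicate 1 was highest for 4 and WS replicate 1 lowest for 0, so its order matched that of the members only in part.

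That list had a median difference of -0.26, with 12 probe sets lower and 4 higher in the CCR mutant and 0 passing. PCNA, the sliding clamp of DNA replication, was at 9.09 and 9.43 in WS and at 9.08 and 8.70 in the CCR mutant. The 4 higher probe sets were those of the histone genes his1 and his1a, with differences of 0.025 to 0.17. The brightest of the list, his1a, was at 12.98 and 12.85 in WS against 12.99 and 12.89, and weighs most in the list's summed signal. The log2 of the summed signal of the list's 21 probe sets was 13.99 and 14.06 in WS against 14.03 and 13.91 in the CCR mutant, and 5 of the 21 did not reach 4 on any array. For the 36 members this sum was 16.72 and 16.78 against 16.74 and 16.72. Without WS replicate 2 the median difference of the members was -0.01. The part of dividing cells in the members' values was not tested.

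The photosynthetic leaf list ran in another order, with WS replicate 2 lowest for 12 of 18 tested probe sets and CCR mutant replicate 2 highest for 10. Its median difference was 0.09, with 15 higher and 3 lower, all 18 overlapping between the groups and 0 passing. The log2 of its summed signal was 16.25 and 16.00 in WS against 16.12 and 16.26 in the CCR mutant, and 2 of its 20 probe sets did not reach 4 on any array. The 4 secondary wall probe sets had a median difference of -0.18 and a log2 summed signal of 12.49 and 12.13 against 11.99 and 12.37.

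Genes of translation outside the name rule were taken by symbol, a list drawn up after the annotation was read. They were 7 genes with 13 probe sets, of which 11 were tested. Of these, 8 were lower, 2 higher and 1 equal, with a median of -0.05 and 0 passing. A mean of 10 or more was seen for 9 of the 11 (81.8%, the same share as in the members). The gap over the 4 arrays was under 0.2 for 7 (63.6%), beside 66.7% of the members. High signal and small gaps were thus not particular to the members. The largest difference was that of rip2, which encodes a ribosome-inactivating protein, an enzyme that removes an adenine from the RNA of the large subunit. It was at 8.05 and 7.93 in WS and at 6.73 and 7.17 in the CCR mutant. Both CCR mutant arrays were below both WS arrays, the difference was -1.04 (SE 0.18, interval -1.56 to -0.52), and without any 1 array it was between -1.26 and -0.82. Its unadjusted p in the limma fit was 0.00582, but its adjusted p was 0.533 and it did not pass.

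The other genes of this list were closer to the members. S6K, the kinase of S6, was near background at 4.09 and 4.13 in WS and at 3.47 and 4.19 in the CCR mutant. It differed by -0.28 (SE 0.27). One probe set of TCTP, a translationally controlled growth-related protein, was at 10.67 and 10.75 against 10.85 on both CCR mutant arrays, a difference of 0.14 (SE 0.08). A brighter TCTP probe set differed by -0.055 (SE 0.07), so the probe sets of this gene disagreed in sign. tif1, for initiation factor eIF1, was at 12.11 and 11.68 against 11.76 and 11.84, and prpl35-1, for the plastid ribosomal protein L35, at 11.59 and 11.44 against 11.51 and 11.42. Both overlapped, with differences of -0.095 (SE 0.18) and -0.05 (SE 0.10).

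**Figure D5:**
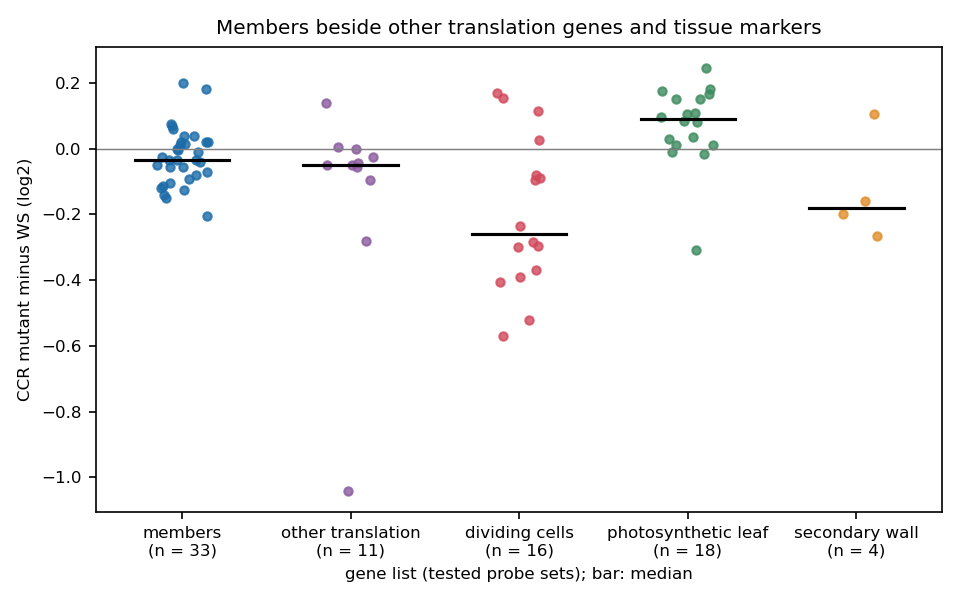
Difference CCR mutant minus WS (log2) for each tested probe set of the members, of other translation genes, and of marker lists for dividing cells, photosynthetic leaf and secondary wall; black bars are medians. The members lie between -0.205 and 0.20 around a median of -0.035, the point at -1.04 is rip2, and the dividing-cell list has its median at -0.26.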

How the data were processed

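GCRMA was the authors' method for the deposited log2 values, as the submitters' processing notes say (version not given in the sources used here). It corrects background by base composition and quantile-normalizes the arrays, which is meant to remove overall shifts between them. In the deposited values the array medians still ran from 6.56 to 6.62, and the median difference over all tested probe sets was -0.045. The base 2 is inferred from the range of 1.12 to 14.11. The 4 columns were matched to samples by the labels. Controls (113 AFFX and 66 reporter probe sets) were left out. A probe set was tested if it reached 4 on at least 2 arrays. limma 3.58.1 in R 4.3.3 (no trend, not robust, two-sided) was fitted to all 11085, with Benjamini-Hochberg adjustment, a threshold of 0.05, 2 residual and 1.70 prior degrees of freedom, and was tested on simulated data. The number of arrays limits the precision, and dim probe sets varied more than bright ones; scan dates were not used here.

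Names were taken from the array's platform annotation and its gene identifiers in RefSeq (Zm-B73-REFERENCE-NAM-5.0), where 24 of 25 member genes were found; 16281 probe sets are unnamed here. Members and lists were chosen with earlier results of these data known. Full values were set by rule for RPS10, for the 6 members of lowest p and for the largest absolute difference per family; other members are given as values. The planned search for other translation genes by description matched 0 symbols and was replaced by a list of symbols. A cyclotide gene that the cyclin prefix caught was left out. Alternatives were other filters, scalings and variance models, a floor, a replicate block, leaving out each array or probe sets ending in _s_at or _x_at, and 1 value per gene.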

Additional observations from a re-analysis of the deposited data

How the results depend on the processing

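No member passed under any alternative run: no filter, a minimum of 6, repeated quantile normalization, median-centred arrays, a variance trend, robust variances, the replicate block, a floor at 4, without _s_at and _x_at probe sets, 1 value per gene in both forms, and without each array. The lowest adjusted p of a member over these was 0.464, with no filter. Members at an unadjusted p under 0.05 numbered 3 with no filter, 1 with a variance trend and 0 under the other alternatives named here. The members' median difference stayed between -0.04 and 0.005. On the whole array 17 probe sets passed, 9 did with no filter, and with any 1 array left out 0 did. With the replicate number as a block 0 passed; the numbers share no stated source, and deviations of same-numbered arrays correlated at r = 0.35 over all tested probe sets (0.06 over the members, as a description). Leaving out each array turned the sign of the dimmer tested EF1-A probe set (-0.34 to 0.37), tif1 (-0.31 to 0.12), prpl35-1 (-0.125 to 0.025) and S6K (-0.64 to 0.08). It moved RPL19 between -0.29 and -0.01, the rps6-1 probe set of lowest p between -0.225 and -0.055 and rpp2a-4 between 0.09 and 0.27. With 1 array left in a group, that array is assumed to vary like the other group. Values near background have no reliable size.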
